A study of Saccharomyces cerevisiae with 6 samples.

Results

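The genes of the proteasome and its transcription factor *RPN4* were followed in *Saccharomyces cerevisiae* by transient-transcriptome sequencing (TT-seq), which enriches and sequences RNA made during a short pulse of 4-thiouracil. The 34 genes were chosen by name: 32 encode subunits (*RPN1* to *RPN3*, *RPN5* to *RPN13*, *RPT1* to *RPT6*, and the core genes of the *PRE* and *PUP* names with *SCL1*), *RPN4* encodes the transcription factor and *UMP1* an assembly factor. All 34 were among the 7032 genes counted, and all 34 passed the filter on low counts that left 5943 genes for testing. There were 3 libraries of wild-type cells and 3 from *dbp2Δ* cells, which lack the DEAD-box RNA helicase Dbp2, and the study describes them as biological replicates. The wild-type strain is given as *MATa his3Δ1 leu2Δ0 met15Δ0 ura3Δ0* and the *dbp2Δ* strain is *MATα* with *dbp2::KanR*, carries the *his3Δ0*, *leu2Δ0* and *ura3Δ0* deletions and is *TRP1*, *MET* and *LYS*, and each strain is 1 genotype. Both carried the empty *URA3* vector pRS426 and grew in medium lacking uracil with 2% glucose at 30°C to an OD600 of 0.5, and 4-thiouracil (called 4-sU in part of the labels) was given at 0.32 mg/ml for 10 min. The strains differ in mating type, *MET15* and *LYS2* as well as in *DBP2*, so that the part of each in any difference below cannot be told apart.

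The proteasome degrades proteins marked with ubiquitin. Its core particle stacks rings of α subunits, which gate the entry, around rings of β subunits, some of which cut the substrate. The regulatory particle sits on the core: its base holds a ring of Rpt ATPases that unfold substrates together with scaffold and ubiquitin-binding subunits, and its lid holds the Rpn11 deubiquitinase. Rpn4 binds a short promoter sequence, the proteasome-associated control element GGTGGCAAA, shared by most of these genes, and is itself degraded rapidly by the proteasome, which forms a feedback loop. Transcription of *RPN4* is driven by the stress factors Hsf1, Yap1, Pdr1 and Pdr3.

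Gene counts per library summed to between 6968216 and 13134963. Wild-type libraries held 10976 to 11213 counts of *DBP2*, and *dbp2Δ* libraries at most 2. *MET17* (the *MET15* gene) had no count in the wild-type libraries and 1505 to 2030 in *dbp2Δ*, and *LYS2* had at most 1 count in wild-type and 4477 to 5894 in *dbp2Δ*. The *LYS2* counts go against the genotype given for the wild-type strain, which lists no *lys2* deletion. The **a**-specific genes *STE2*, *BAR1*, *MFA1*, *MFA2*, *STE6* and *AGA2* were higher in each wild-type library than in any *dbp2Δ* library, and the α-specific genes *MF(ALPHA)1*, *MF(ALPHA)2*, *STE3* and *SAG1* were higher in each *dbp2Δ* library, as the labelled mating types require. Wild-type replicate 3 stood apart for the proteasome genes. It was the lowest wild-type library for 32 of the 34, against 40.8% of all genes tested, with a median log2 ratio of −0.56 to the mean of the other two wild-type libraries (all genes: −0.03). The count of lower proteasome genes is therefore given with and without it, and the genes called only without it are named. Counts are relative to the other genes of a library, and in these bulk cultures fewer expressing cells and less RNA per cell cannot be told apart.

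The sequence bound by Rpn4 was sought in the R64 genome from 250 bases before to 50 bases after the first base of the start codon, on both strands. GGTGGCAAA was found for 27 of the 34 genes (79.4%; exact binomial 95% interval 62.1 to 91.3%), against 72 of 6021 genes overall (1.20%). Each of the 27 had 1 match, 19 on the strand of the gene and 8 on the other, and the matches lay 76 to 175 bp upstream of the start codon with a median of 112 bp. The 30-base stretches below are shown for the genes with the lowest log2 fold changes and for those with log2 fold changes nearest to 0. They are RefSeq R64 sequence written 5′ to 3′ on the strand that reads GGTGGC, with the match in capitals. The first 5 belong to genes with the lowest log2 fold changes of the 27 (*RPT3* chrIV:1261495-1261524 plus strand, *PRE10* chrXV:1018855-1018884 minus, *PRE2* chrXVI:732184-732213 plus, *PRE3* chrX:435035-435064 plus, *PRE6* chrXV:255217-255246 minus).
RPT3: ctgaaagtaaGGTGGCAAAatagtaaatct
PRE10: cctctaaatcGGTGGCAAAaataagaaagt
PRE2: acagcaaaagGGTGGCAAAacgaagaatag
PRE3: aacggaatccGGTGGCAAAaaagggaaaag
PRE6: tttcccttccGGTGGCAAAagaatcttcga

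The next 4 belong to the motif-bearing genes whose log2 fold changes were nearest to 0 (*RPN9* chrIV:1322086-1322115 plus, *RPN12* chrVI:252397-252426 minus, *RPN5* chrIV:190776-190805 plus, *PUP2* chrVII:999225-999254 minus).
RPN9: gctttcatccGGTGGCAAAagtaagaacaa
RPN12: aatttcaatgGGTGGCAAAtaatgtgtaga
RPN5: ttgacttttcGGTGGCAAAatgcaaagggg
PUP2: aaccaagaccGGTGGCAAAagagtaaccta
Both sets were drawn from the genes that hold the 9 letters. The matches lay 101 to 168 bp upstream for the first 5 and 89 to 130 bp for these 4.

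No match to the 9 letters lay in the windows of *RPN4*, *RPN8*, *RPN10*, *RPN13*, *PRE5*, *PUP1* and *UMP1*. The shorter search for GGTGGC, which every 9-letter match contains, added *RPN10* (chrVIII:498967-498996 minus) and *RPN13* (chrXII:965655-965684 minus), and 6.91% of all windows hold these 6 letters.
RPN10: tgtaaattccGGTGGCgaaaacccgcctgg
RPN13: ttattcgcgaGGTGGCgaaagctttgctac

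Proteasome genes were lower in *dbp2Δ* or did not pass the test, and none was higher. With edgeR's quasi-likelihood test, 15 of 34 (44.1%) were called lower at an adjusted p under 0.05, when 22.4% of the 5943 genes tested were lower and 19.6% higher. Of the 34 log2 fold changes, 33 were below 0, from −0.87 for *RPT3* to 0.02 for *RPN9*, with a median of −0.51 (all genes: −0.02). Every *dbp2Δ* library lay below every wild-type library for 16 of the 34 genes, against 28.3% of all genes, and the libraries overlapped for the other 18. Without wild-type replicate 3, 28 of the 34 were called lower, at a background of 26.5%. The other 6 were *RPN5*, *RPN9*, *RPN12*, *RPN13*, *PRE5* and *UMP1*. Leaving out any other library gave between 6 and 10 lower genes. These were 10 without wild-type replicate 1 (23.9% of all genes lower in that fit), 8 without wild-type replicate 2 (17%), and 6, 6 and 7 without *dbp2Δ* replicates 1, 2 and 3 (13.4, 12.8 and 14%), so that the count lies nearer to the background in these fits than with all libraries. The genes called lower with all libraries and in each of the 6 fits without a library numbered 6: *RPT3*, *PRE3*, *PRE6*, *PRE10*, *PUP1* and *PUP3*. The share of all genes tested that were lower in every one of these fits was not counted.

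**Figure D1:**
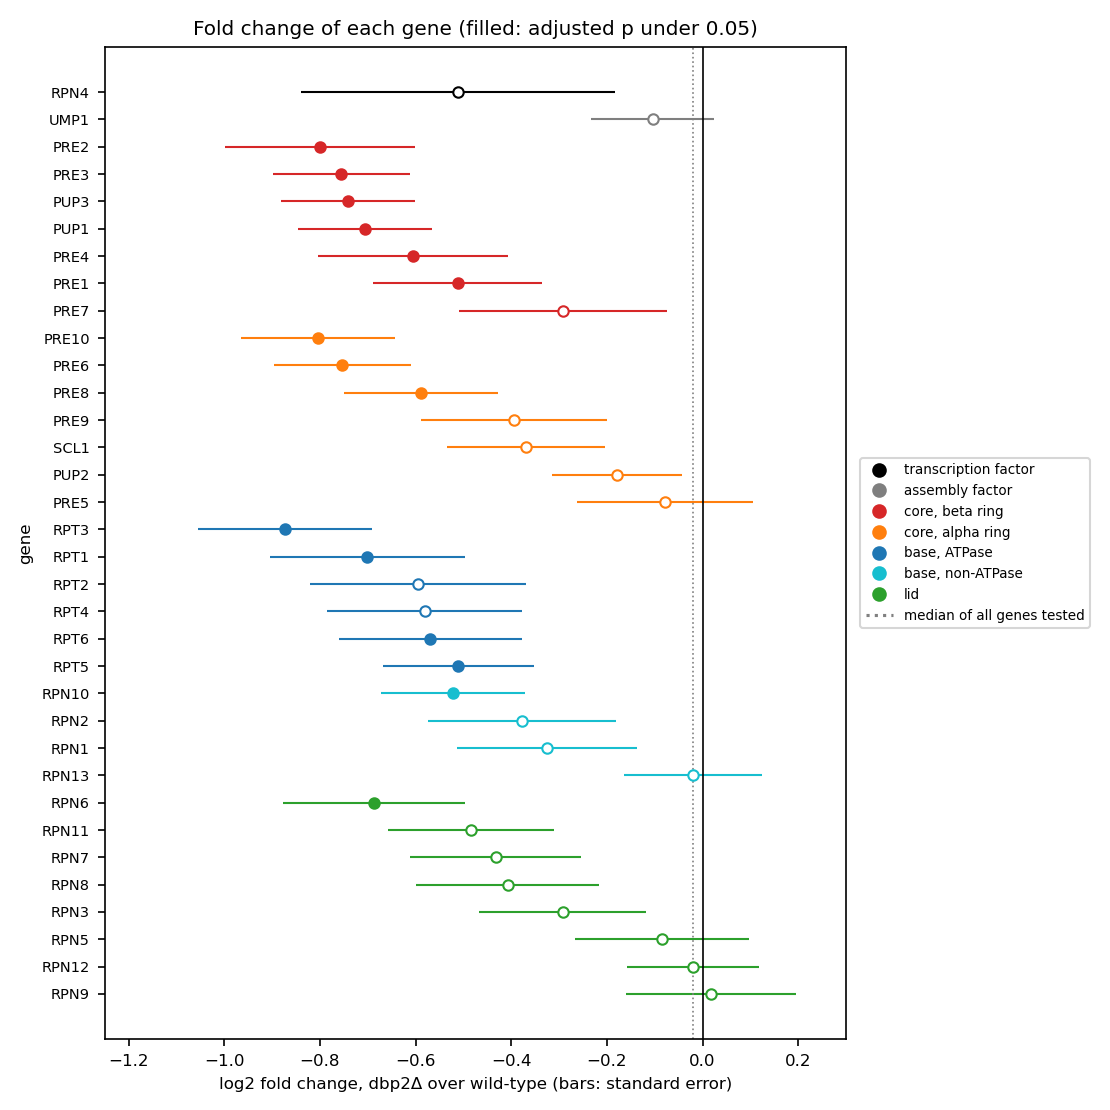
Log2 fold change of each of the 34 genes in *dbp2Δ* over wild-type (x axis) with its standard error from edgeR, grouped by place in the proteasome; filled points passed an adjusted p of 0.05 and the dotted line is the median of all genes tested. *RPT3*, *PRE10* and *PRE2* lie farthest left, while *RPN9*, *RPN12* and *RPN13* lie at about 0.

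*RPN4* (YDL020C, chrIV:415113-416708, minus strand) had 4294, 3161 and 1511 normalized counts in wild-type and 2116, 2044 and 2133 in *dbp2Δ*. The groups overlapped, since 2 wild-type libraries were above every *dbp2Δ* library and wild-type replicate 3 was below all of them. The log2 fold change was −0.51 (SE 0.33) with an adjusted p of 0.24 by edgeR, and the exact two-sided permutation test of the log2 values gave p = 0.4, where the smallest p that 20 splits allow is 0.1. Without wild-type replicate 3 the log2 fold change was −0.83 and passed (edgeR adjusted p = 0.0017). Among the 34 genes, *RPN4* was the one for which that library departed most, at a log2 ratio of −1.30 to the mean of the other wild-type libraries. As a share of the summed subunit counts, *RPN4* ran from 2.46 to 5.18% in wild-type and from 3.47 to 3.67% in *dbp2Δ*, so that the *dbp2Δ* libraries lay within the wild-type range.

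*RPN4* held no 9-letter Rpn4 match in its own window. Candidate sites for its activators were sought in the 500 bases before its start codon, a search chosen after the data had been seen. The Yap1 sequence TTACTAA was found 368 bp upstream (chrIV:417063-417092, minus strand), a match that 11.8% of such windows hold. The Hsf1 sequence, TTC and GAA and TTC with 2 bases of any kind between each, was found 9 bp (chrIV:416710-416739) and 336 bp (chrIV:417037-417066) upstream, and 1.48% of windows hold at least 1. The Pdr1 and Pdr3 sequence TCCGCGGA was not among these letters (0.648% of windows hold it). Only this exact sequence was sought for Pdr1 and Pdr3, so sites with other letters may have been missed. Matches are in capitals, on the strand of *RPN4*.
Yap1 match: gtgatcgctaTTACTAAtagccgtttacag
Hsf1 match, near: ttcaaaagttTTCTAGAATTTTCaagcaat
Hsf1 match, far: acagtgatggTTCTAGAAAGTTCcgtttcg

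Of the 6 listed regulators of *RPN4*, none was lower and 2 were higher, when 22.4% of all genes tested were lower and 19.6% higher. *PDR3*, which encodes a transcription factor of multidrug resistance, had 866, 710 and 906 normalized counts in wild-type and 1366, 1310 and 1351 in *dbp2Δ* (log2 fold change 0.70, SE 0.12, edgeR adjusted p = 0.0039). *MUB1*, a partner of the Ubr2 ligase that marks Rpn4 for degradation, rose by a log2 of 0.50 (SE 0.15, edgeR adjusted p = 0.034). *UBR2* had a log2 fold change of 0.49 that did not pass (edgeR adjusted p = 0.11), and *PDR1* (0.24), *YAP1* (0.10) and *HSF1* (0.04) did not pass either. The count of higher regulators ran from 1 to 3 with 1 library left out, when 10.9 to 25.3% of all genes were higher.

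The 32 subunit genes summed to 82958, 96717 and 61433 normalized counts in wild-type and to 57706, 58915 and 59542 in *dbp2Δ*. All *dbp2Δ* sums lay below all wild-type sums, by a wide margin for wild-type replicates 1 and 2 and by a narrow one for replicate 3. The means were 80369 ± 17784 and 58721 ± 933 (SD, n = 3 each), a log2 ratio of −0.45, or −0.61 without wild-type replicate 3 and −0.07 against that replicate alone. As a share of the raw gene counts, without any scaling, the subunit genes took 0.855, 0.910 and 0.603% in wild-type and 0.610, 0.618 and 0.606% in *dbp2Δ*. On that scale wild-type replicate 3 was the lowest of the 6 libraries. The genes also spread less in *dbp2Δ*: their median coefficient of variation was 22.5% over the wild-type libraries and 5.85% over the *dbp2Δ* libraries, against 15.1% and 8.16% over all genes tested.

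**Figure D2:**
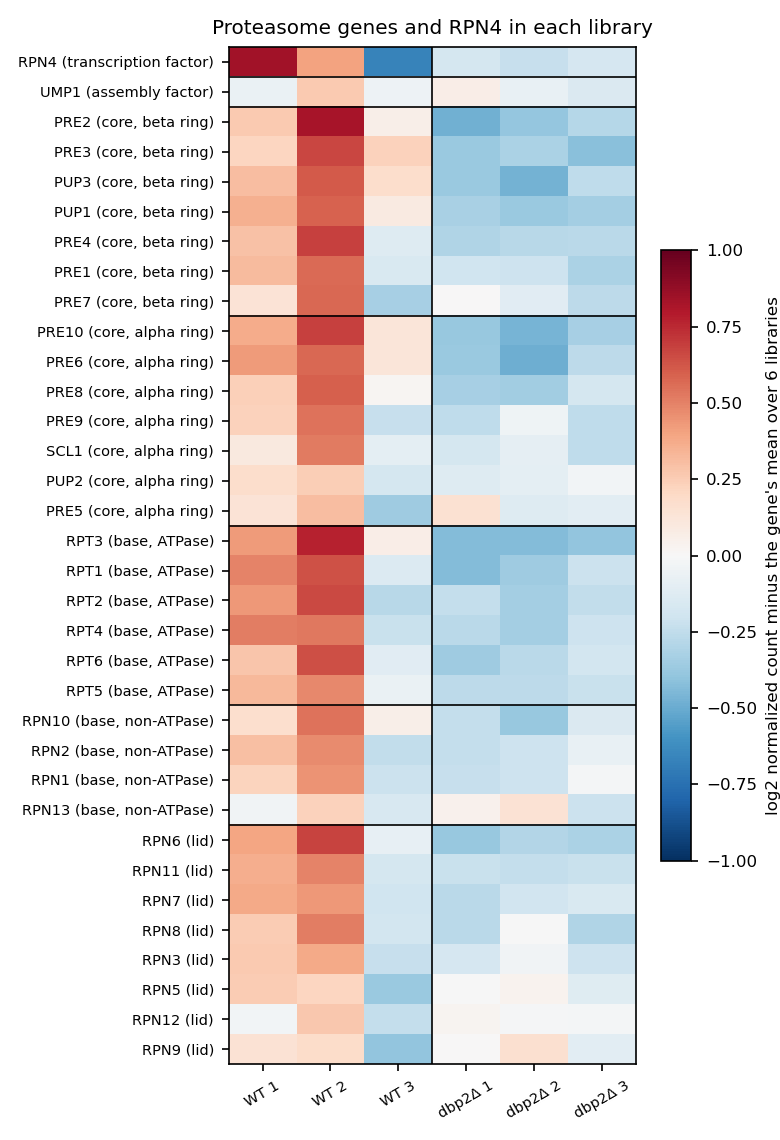
Log2 normalized count of each gene (rows, grouped by place in the proteasome) in each of the 6 libraries (columns), less the mean of that gene over the 6. Wild-type replicate 2 is highest for 32 of the 34 genes and wild-type replicate 3 is the lowest wild-type library for 32, and the *dbp2Δ* columns are alike.

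In the catalytic β ring 6 of 7 genes were lower (all genes tested: 22.4%), with a median log2 fold change of −0.70. *PRE2* (YPR103W), whose product carries the chymotrypsin-like site, had 1696, 2507 and 1468 normalized counts in wild-type and 1013, 1082 and 1162 in *dbp2Δ*. The groups did not overlap, and the log2 fold change was −0.80 (SE 0.20, edgeR adjusted p = 0.016), the lowest of the ring, which passed in 4 of the 6 fits without a library. *PRE3* (YJL001W), which encodes the caspase-like subunit and is the only one of the 34 genes with an intron, had 1307, 1795 and 1321 in wild-type and 871, 905 and 842 in *dbp2Δ*. Here wild-type replicate 3 was level with replicate 1, and the level fell by 40.8% in *dbp2Δ* (log2 fold change −0.76, SE 0.14, edgeR adjusted p = 0.0061). *PUP1* (YOR157C), for the trypsin-like subunit, had 1763, 2077 and 1467 against 1104, 1066 and 1086 normalized counts (log2 fold change −0.70, edgeR adjusted p = 0.0072), and the lowest wild-type value lay above the highest *dbp2Δ* value. *PUP1* has no 9-letter Rpn4 match in its window.

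The remaining β genes encode subunits without a catalytic site. *PUP3* (YER094C) had a log2 fold change of −0.74 (edgeR adjusted p = 0.0061), *PRE4* (YFR050C) of −0.61 (edgeR adjusted p = 0.043) and *PRE1* (YER012W) of −0.51 (edgeR adjusted p = 0.049), and in all of them the groups did not overlap. *PRE4* and *PRE1* sat close to the threshold and passed in only 1 of the 6 fits without a library, the one without wild-type replicate 3. *PRE7* (YBL041W) was the exception, with 1636, 2218 and 1185 normalized counts in wild-type and 1496, 1378 and 1242 in *dbp2Δ* (log2 fold change −0.29, edgeR adjusted p = 0.31). Its *dbp2Δ* values fell between those of wild-type replicates 1 and 3, and it passed without wild-type replicate 3 (−0.49).

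In the α ring 3 of 7 genes were lower (all genes tested: 22.4%), with a median log2 fold change of −0.39. *PRE10* (YOR362C) had 2566, 3183 and 2154 normalized counts in wild-type and 1526, 1431 and 1570 in *dbp2Δ*. Its groups were well apart, at a log2 fold change of −0.80 (SE 0.16, edgeR adjusted p = 0.0072). *PRE6* (YOL038W) had 2009, 2229 and 1628 against 1158, 1071 and 1251 (log2 fold change −0.75, SE 0.14, edgeR adjusted p = 0.0061), again without overlap. *PRE8* (YML092C) followed at −0.59 (edgeR adjusted p = 0.022), and passed in 3 of the 6 fits without a library. *PRE9* (YGR135W), the only core subunit that yeast can live without, had a log2 fold change of −0.39. Those of *SCL1* (YGL011C) and *PUP2* (YGR253C) were −0.37 and −0.18. None of these 3 passed with all libraries, and all passed without wild-type replicate 3 (−0.58, −0.50 and −0.30). *PRE5* (YMR314W) had 680, 767 and 483 normalized counts in wild-type and 688, 565 and 574 in *dbp2Δ* (log2 fold change −0.08, edgeR adjusted p = 0.74), with the *dbp2Δ* libraries inside the wild-type range. For the core as a whole 9 of 14 genes were lower, against the same 22.4% of all genes tested.

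Of the 6 *RPT* genes, which encode the ATPase ring of the base, 4 were lower (all genes tested: 22.4%). The 6 had a median log2 fold change of −0.59. *RPT3* (YDR394W, chrIV:1261681-1262967, plus strand) had 3301, 4191 and 2569 normalized counts in wild-type and 1812, 1817 and 1863 in *dbp2Δ*. All wild-type libraries were above all *dbp2Δ* libraries, which differed little among themselves, and the log2 fold change of −0.87 (SE 0.18, edgeR adjusted p = 0.0084) was the lowest of the 34 genes. *RPT1* (YKL145W, −0.70, edgeR adjusted p = 0.028), *RPT6* (YGL048C, −0.57, edgeR adjusted p = 0.046) and *RPT5* (YOR117W, −0.51, edgeR adjusted p = 0.035) were also lower without overlap of the groups. Their calls were lost in 5 of the 6 fits without a library, all but the one without wild-type replicate 3. *RPT2* (YDL007W, −0.60, edgeR adjusted p = 0.067) and *RPT4* (YOR259C, −0.58, edgeR adjusted p = 0.053) had fold changes as low as those of called genes but did not pass. The SE was 0.23 for *RPT2* and 0.20 for *RPT4*, the latter like that of *RPT1* (0.20). *RPT2* had 2939, 3434 and 1800 against 1850, 1723 and 1837 normalized counts. The *RPT2* value of wild-type replicate 3 lay among the *dbp2Δ* values. Both *RPT2* and *RPT4* passed without that replicate (−0.82 and −0.79).

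Among the other subunits of the base 1 of 4 was lower, a share near the 22.4% of all genes tested. Their median log2 fold change was −0.35. *RPN10* (YHR200W), which encodes a ubiquitin receptor, had 1562, 2032 and 1448 normalized counts in wild-type and 1182, 1069 and 1261 in *dbp2Δ* (log2 fold change −0.52, SE 0.15, edgeR adjusted p = 0.028), with no overlap, and passed in 2 of the 6 fits without a library. *RPN13* (YLR421C), the gene of a further ubiquitin receptor, had 727, 873 and 666 against 767, 826 and 642. The *RPN13* groups overlapped throughout, at a log2 fold change of −0.02 (SE 0.14, edgeR adjusted p = 0.92). These are the receptor genes shown above with 6 letters of the Rpn4 motif. The large scaffold genes *RPN1* (YHR027C, −0.33) and *RPN2* (YIL075C, −0.38) did not pass with all libraries and passed without wild-type replicate 3 (−0.49 and −0.56).

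The lid had 1 lower gene of 8, a share below the 22.4% of all genes tested, and a median log2 fold change of −0.35. *RPN6* (YDL097C), whose product bridges the lid to the core, had 2998, 3639 and 2156 normalized counts in wild-type and 1761, 1864 and 1836 in *dbp2Δ* (log2 fold change −0.69, SE 0.19, edgeR adjusted p = 0.023), without overlap. Its call held in 2 of the 6 fits without a library. *RPN11* (YFR004W), the gene of the deubiquitinase, had 1887, 2073 and 1300 against 1258, 1243 and 1258 normalized counts. These groups did not overlap either, though by a narrow margin. The *RPN11* log2 fold change of −0.48 did not pass (edgeR adjusted p = 0.056), and passed without wild-type replicate 3 (−0.66). *RPN7* (YPR108W, −0.43), *RPN8* (YOR261C, −0.41) and *RPN3* (YER021W, −0.29) did not pass and passed without wild-type replicate 3. The remaining lid genes stayed near 0 with all libraries: *RPN5* (YDL147W) at −0.09, *RPN12* (YFR052W) at −0.02 and *RPN9* (YDR427W) at 0.02. *RPN9* had 2979, 3060 and 2048 normalized counts in wild-type and 2700, 2995 and 2495 in *dbp2Δ*, a full overlap, and did not pass without wild-type replicate 3 (−0.15, edgeR adjusted p = 0.30). Differences between the subcomplexes were not tested.

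*UMP1* (YBR173C) encodes the chaperone that completes the core and is then degraded inside it. It had 641, 803 and 647 normalized counts in wild-type and 702, 635 and 607 in *dbp2Δ*, with overlapping groups and a log2 fold change of −0.10 (SE 0.13, edgeR adjusted p = 0.53). Its level in wild-type replicate 3 was close to that in replicate 1.

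**Figure D3:**
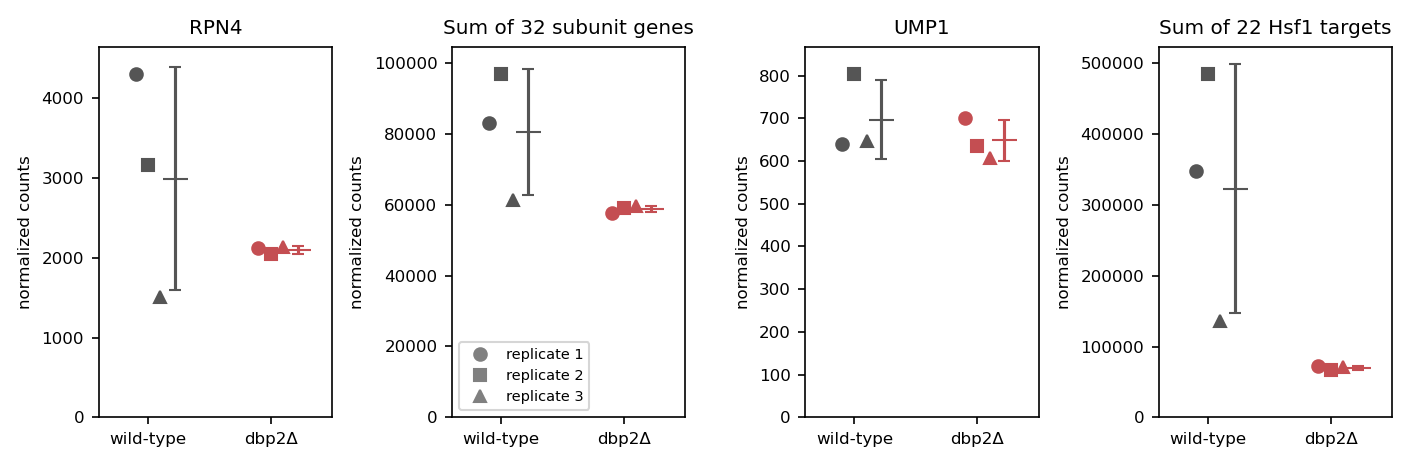
Normalized counts of *RPN4*, of the 32 subunit genes summed, of *UMP1* and of 22 Hsf1 target genes summed (y axes from 0), with 1 symbol per replicate and the mean and SD of the 3 libraries beside them. Wild-type replicate 3 (triangle) is the lowest wild-type library for *RPN4* and both sums, below all *dbp2Δ* libraries for *RPN4* and above them for the sums.

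Levels of different genes were compared per kb of coding length, without correction for the uracil content of 20.8 to 31.5%, which sets how much 4-thiouracil a transcript can take up. In wild-type the 32 subunit genes ran from 912 ± 207 normalized counts per kb for *PRE5* to 3090 ± 857 for *PRE4* (SD, n = 3), and 27 of them lay between 1500 and 2700. *PRE10* (3039 ± 597) and *PUP3* (3027 ± 482) followed *PRE4* and did not differ from it beyond their spread. *PRE5* stood below the next gene, *RPN12* (1431 ± 255). Between *RPN12* and *PRE4* the levels differed by 2.16-fold, with neighbours in the order closer than their SDs. In *dbp2Δ* the range was 864 ± 97.4 for *PRE5* to 2524 ± 143 for *RPN5*, followed by *RPN9* (2310 ± 213). *RPN9* did not differ beyond its spread from the next gene, *RPN3* (2201 ± 136). *RPN4* stood at 1872 ± 877 per kb in wild-type and 1314 ± 29.7 in *dbp2Δ*, and *UMP1* at 1559 ± 205 and 1450 ± 109.

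**Figure D4:**
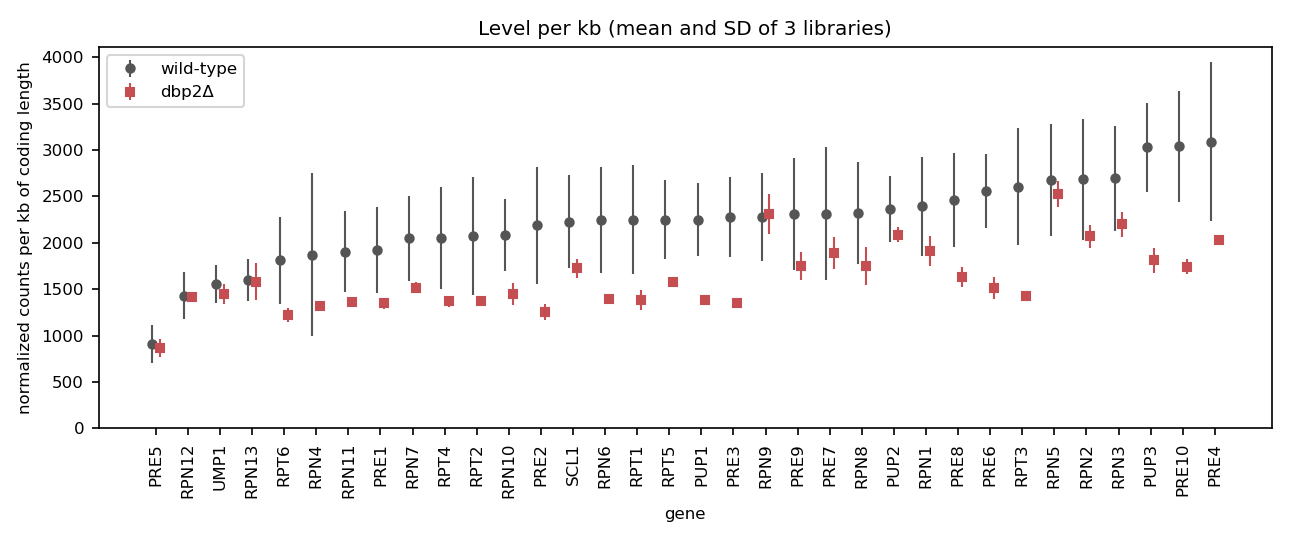
Normalized counts per kb of coding length of the 34 genes (y axis, from 0), ordered by their wild-type mean, as the mean and SD of 3 libraries for wild-type (circles) and *dbp2Δ* (squares). *PRE5* is the lowest gene in both strains, and the wild-type SDs are wider than those of *dbp2Δ* for most genes.

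Of the 27 genes with GGTGGCAAA, 13 were lower with a median log2 fold change of −0.51. Of the 7 without it, *RPN10* and *PUP1* were lower and the median was −0.41. Outside the 34 genes, 45 others hold the 9 letters in their window, 7 of them through a site that also lies in the window of a proteasome gene, and 44 could be tested. Of these 44, 17 were lower (38.6%) and 4 higher, with a median log2 fold change of −0.20. Over all genes tested 22.4% were lower and 19.6% higher. Of the 45, 5 also stand in the lists of related genes counted in other paragraphs. In wild-type replicate 3 the median log2 ratio of the 44 to the other wild-type libraries was −0.26, against −0.56 for the proteasome genes.

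**Figure D5:**
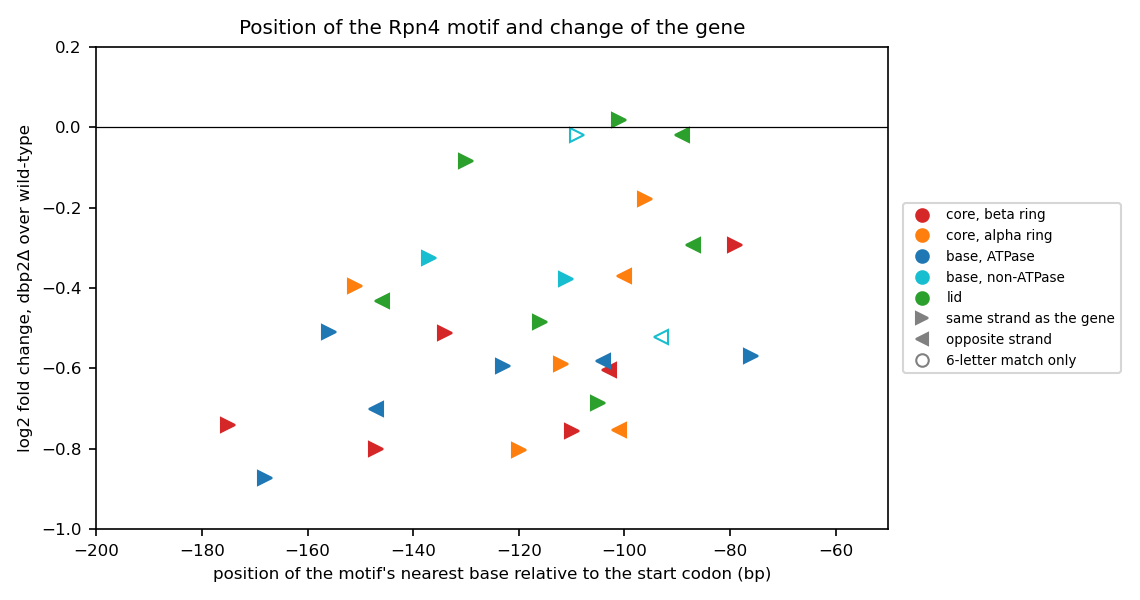
Log2 fold change in *dbp2Δ* over wild-type (y axis) against the distance of the Rpn4 motif from the start codon in bp (x axis), for the 27 genes with the 9 letters (filled) and *RPN10* and *RPN13* with 6 letters (open); the triangles point right for a match on the strand of the gene. Matches at like distances, around 100 bp, belong to genes with fold changes from −0.75 (*PRE6*) to 0.02 (*RPN9*).

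Genes that act with the proteasome were counted in lists taken from textbook knowledge. Of 16 assembly chaperones and further proteasome proteins 6 were lower and 1 higher, with a median log2 fold change of −0.22. Over all genes tested 22.4% were lower and 19.6% higher. *NAS6*, a chaperone of the regulatory particle, had 459, 551 and 611 normalized counts in wild-type and 273, 289 and 228 in *dbp2Δ* (log2 fold change −1.04, SE 0.15, edgeR adjusted p = 0.0026). Wild-type replicate 3 was here the highest library. *ADD66*, a chaperone of the core, had 777, 843 and 942 against 498, 535 and 493 (log2 fold change −0.75, edgeR adjusted p = 0.0027), and the chaperone genes *TMA17* (−0.75, edgeR adjusted p = 0.0496) and *RPN14* (−0.54, edgeR adjusted p = 0.0093) were lower as well. *PBA1*, whose product pairs with that of *ADD66*, had a log2 fold change of 0.31 that passed narrowly (edgeR adjusted p = 0.047) and was not called in 5 of the 6 fits without a library. Over this list the median log2 ratio of wild-type replicate 3 to the other wild-type libraries was 0.05, unlike the −0.56 of the proteasome genes. Without that library 7 were lower (all genes: 26.5%). With any 1 library left out 3 to 7 were lower (all genes: 12.8 to 26.5%).

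In the ubiquitin and Cdc48 list 11 of 30 genes were lower and none higher (all genes: 22.4% and 19.6%), with a median of −0.25. *SHP1*, a Cdc48 cofactor (−1.20), *DSK2*, which encodes a shuttle that carries ubiquitin-marked proteins to the proteasome (−1.09), *HRD1*, a ubiquitin ligase of the endoplasmic reticulum (−0.92), and *DOA1*, a further Cdc48 partner (−0.90), had the largest changes. Without wild-type replicate 3, 15 of the 30 were lower and 4 higher (all genes: 26.5% and 25.3%). With any 1 library left out the lower genes ran from 4 to 15 (all genes: 12.8 to 26.5%).

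Targets of the *RPN4* activators were counted against the same background of 22.4% lower and 19.6% higher. Of 22 Hsf1 targets 21 were lower and none higher, with a median log2 fold change of −2.28, led by *BTN2* (−4.58), the small heat shock gene *HSP42* (−4.49), the Hsp90 gene *HSP82* (−4.13) and the Hsp70 gene *SSA1* (−3.82). Their summed level was 348641, 484442 and 135500 normalized counts in wild-type and 72379, 66427 and 70526 in *dbp2Δ*. Wild-type replicate 3 was thus the lowest wild-type library here too, with a median log2 ratio of −1.55 to the others, and all 22 were lower without it. The part of the heat shock level in the proteasome values was not tested. Of 11 Yap1 targets 3 were lower and 3 higher: *GSH1* (−0.73) and *TSA1* (−0.57), which act against oxidants, were among the lower, and *GTT2* (0.69) and the transporter gene *FLR1* (0.57) among the higher, and each count ran from 0 to 4 with 1 library left out. Of 7 Pdr1 and Pdr3 targets 1 was lower, *RSB1*, at 17.4, 34.4 and 28.7 normalized counts in wild-type and 14.9, 7.70 and 9.08 in *dbp2Δ*. That count was 0 to 1 with 1 library left out. Over the fits without a library 12.8 to 26.5% of all genes were lower and 10.9 to 25.3% higher.

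No gene in the RefSeq R64 annotation overlapped any of the 34. That annotation matched 5953 of the 7032 gene IDs, and the others were not searched. The antisense table lists a non-coding transcript opposite 3 of the 34. The transcript opposite *PRE1* (chrV:178206-178574, minus strand) had 549, 632 and 374 normalized counts in wild-type and 318, 357 and 368 in *dbp2Δ*. All *dbp2Δ* libraries lay below all wild-type libraries, narrowly so for replicate 3, with a log2 fold change of −0.58 (SE 0.19, edgeR adjusted p = 0.044) beside −0.51 for *PRE1* itself, and of the 2167 antisense transcripts tested 19.1% were lower and 23.1% higher. That call was lost in each of the 5 fits that left out a library other than wild-type replicate 3. The transcripts opposite *PRE9* (−0.30, edgeR adjusted p = 0.28) and *UMP1* (−0.04, edgeR adjusted p = 0.85) did not pass. The genes themselves had −0.39 and −0.10. The *PRE9* transcript passed without wild-type replicate 3. Of the length of these transcripts, 61.2% lies inside *PRE1*, 100% inside *PRE9* and 64.2% inside *UMP1*. How the counting treated strand is not stated in the labels or methods. Reads of each gene and of its antisense transcript may therefore not have been told apart, and the antisense values may repeat those of the genes.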

How the data were processed

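Raw counts of genes and of antisense non-coding transcripts were used as the authors deposited them, in 1 column for each library. Build R64, featureCounts and edgeR are named in the submitters' processing notes; aligner and strand setting: not given in the sources used here. Tests used edgeR 4.0.16 in R 4.3.3 (TMM, filterByExpr, glmQLFit and glmQLFTest), with strain as the only factor, over all 5943 genes that passed the filter, with calls at an adjusted p (Benjamini-Hochberg) under 0.05. For antisense counts the effective library sizes were those of the genes. Normalized counts are TMM-scaled counts at the mean effective library size. Common biological variation was 20.0% (26.5% in wild-type, 9.67% in *dbp2Δ*), and p-values assume a spread shared by both strains. Annotation and sequences came from the RefSeq R64 genome, and 5953 of 7032 gene IDs matched. The gene table has 4 empty lines.

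The 34 genes, the 6 lists (assembly and further proteasome proteins, ubiquitin pathway and Cdc48, regulators of *RPN4*, and targets of Hsf1, Yap1, and Pdr1 and Pdr3) and the tests were chosen with earlier results of these data known. Every one of the 34 could be named. Of each list the 4 called genes with the largest log2 fold change and all regulators of *RPN4* were named, with *PBA1*, *PRE7* and other single genes that a count left out. As alternatives, edgeR's exact test, DESeq2 1.42.0, limma 3.58.1 (voom with weights per strain), library size alone, upper quartile scaling, no filter, an adjusted p under 0.01, a replicate block, leaving out each library, a 6-letter motif and, added after seeing the data, TMM after the filter and a 500-base window were tried. Scripts were tested on simulated counts. Python 3.11.15 with numpy 2.4.6, pandas 2.3.3, scipy 1.17.1 and matplotlib 3.10.9 was used for the rest.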

Additional observations from a re-analysis of the deposited data

How the results depend on the processing

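The proteasome genes called lower numbered 15 with all libraries, 11 by library size alone (all genes: 18.1% lower) and 13 with upper quartile scaling (19.2%). They numbered 15 without a filter (19.1%) or with TMM after it (21.9%), and 16 by edgeR's exact test (22.2%). DESeq2 gave 18 (20.8%) and limma-voom 18 (21.8%). At an adjusted p under 0.01 there were 6, and the share over all genes was not counted at that threshold. Leaving out 1 library gave 6 to 28 (12.8 to 26.5%). None was called higher in any of these fits. Over all genes tested, 22% were higher and 18.1% lower by library size alone, against 19.6% and 22.4%. Over the 34 genes and 14 alternatives each (476 values), 394 kept direction and call, 49 lost the call, 20 gained it and 13 changed sign. The 49 losses could fall only on the 15 genes called with all libraries, and the 394 include genes called in neither fit. *RPN4* ranged from −0.83 to −0.15 with 1 library left out and passed in that without wild-type replicate 3. *RPN12* reached 0.066 by library size and 0.047 by upper quartile scaling, *RPN13* 0.066 and 0.046, and *PRE5* 0.0056 by library size. With 1 library left out, *RPN5* ranged from −0.26 to 0.023, *RPN9* from −0.15 to 0.11, *RPN12* from −0.13 to 0.12, *RPN13* from −0.11 to 0.090, *PRE5* from −0.25 to 0.062, *UMP1* from −0.17 to 0.0019 and the *UMP1* antisense transcript from −0.11 to 0.077. Antisense transcripts of these genes called lower numbered 1, and 0 to 2 with 1 library left out. GGTGGCAAA stood in 1.20% of windows, GGTGGC in 6.91%, and GGTGGCAAA in 1.64% of 500-base windows. Correlations of same-numbered deviations (−0.09, −0.15 and −0.00089) gave no sign that replicate numbers pair the libraries, but cannot show that they do not. With the replicate block 10 genes were lower (all genes: 17.8%). Regulators of *RPN4* called higher numbered 2 (all genes: 19.6% higher), 1 with the replicate block (15.8%) and 3 by limma-voom (20.4%). *PBA1* was not called without a filter, with the block, or by the exact test, DESeq2 or limma-voom, and *RSB1* not with the block.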
